A study of Bos taurus with 8 samples.

Results

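The HOX genes are the members of the 4 HOX clusters, and they were followed here in libraries that measure DNA methylation in cattle dermal fibroblasts. The genome had been divided into 902984 consecutive windows of 3Kb on UMD v3.1, and a window was taken as a HOX window where the gene name it carries is HOXA, HOXB, HOXC or HOXD followed by a number. This gave 72 HOX windows and 32 HOX genes, out of 354832 windows that carry any gene name: 10 HOXA, 6 HOXB, 8 HOXC and 8 HOXD genes. For each cluster, the stretch from the first to the last HOX window was read as well, and the 4 stretches together held 139 windows. MIRA-Seq was used, in which sonicated genomic DNA is pulled down with methyl-binding domain proteins that hold methylated CpG, so that read numbers go up with methylated CpG. Un-treated cultures were used, of 4 Holstein (dairy) and 4 Angus (beef) heifers, all at passage 5 and with no exposure to LPS, grown from skin biopsies of the shoulder area. Each animal gave 1 culture and 1 library, and the cultures are called Holstein 1 to 4 and Angus 1 to 4. Holstein and Angus calves are commonly reared in different ways, with and without their dams, so breed and rearing cannot be told apart.

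HOX genes encode homeodomain transcription factors that give cells their address along the head-to-tail axis and along the limbs. Within a cluster the genes lie in the order in which they act: low-numbered (anterior) genes work toward the head, high-numbered (posterior) genes toward the tail and the limb tips, and genes of the same number in different clusters are paralogs. Adult dermal fibroblasts keep a HOX expression pattern that reflects the body site they came from, and HOX clusters are classic targets of Polycomb repression, with many CpG islands that are usually poor in DNA methylation. LOC100848736, LOC100847795 and LOC100336775 are HOXA6, HOXC10 and HOXD13 by their NCBI gene numbers in RefSeq. They carry no HOX symbol in the files and are given beside the 72 windows, not among them. HOXB3, HOXB5, HOXB8 and HOXB13 matched no name in the files and were not analysed as genes. By their numbers HOXB3, HOXB5 and HOXB8 fall between named HOXB genes, so the windows of the HOXB stretch without a HOX symbol may hold them.

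The libraries held between 18691111 and 35525554 reads in windows, and levels are given as CPM (the reads of a window scaled to a common library total, as edgeR's cpm does) per 3Kb window. A gene's level is its mean over its windows. A window with 3 reads, the floor used here for a count above 0, stood at 0.0844 to 0.161 CPM depending on the library, which covers counting error only since PCR copies are not independent molecules. The 72 HOX windows held between 856 and 2849 reads per library. Reads were most concentrated in few windows in Holstein 1 and Angus 3, where the top 1% of all windows held 69.0% and 72.4% of the reads, against 46.8 to 57.4% in the other 6. One of these 2 libraries was the lowest of the 8 for 30 of the 32 HOX genes by CPM, and for 22 after scaling with TMM, edgeR's correction for library composition. The order of the 72 windows was much alike from animal to animal, with Spearman's rho between 0.796 and 0.929 over the 28 pairs of libraries, which share the CpG content of the windows. The highest coverage at any base of a HOX window in any library was 23 reads, so no HOX window held a tall stack of reads. MIRA-Seq counts also follow CpG density and DNA copy number, whose part in the levels below was not tested.

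HOX windows as a class were not empty of pulled-down reads in these fibroblasts, and their levels spread over a wide range. All 8 libraries are pull-downs, so reads carried over without methylation were not told apart from methylated DNA. The mean over the 8 libraries lay between 0.110 and 2.66 CPM per window, with a median of 0.685, 19 windows below 0.3 CPM and 7 at 2 CPM or more. In 4 or more libraries, 30 of the 72 reached 1 CPM (41.7%), against 19.5% of the 334952 other gene windows on autosomes. Whether HOX windows stood above other genes depended on how a class was summarised. By the mean, HOX windows held 0.891 ± 0.234 CPM (SD, n = 8) and other gene windows 0.861 ± 0.127. The within-library log2 ratio was 0.01 ± 0.22, higher in 6 of 8 libraries (exact two-sided sign-flip permutation test, p = 0.859). By the median, HOX windows held 0.706 ± 0.182 CPM and other gene windows 0.344 ± 0.109, and HOX windows were higher in 8 of 8 libraries (log2 ratio 0.86, exact permutation p = 0.0078, the smallest that 8 libraries allow). For every log2 ratio by the median, here and below, a small constant was added to both medians, which draws the ratio toward 0. The other gene windows had a long upper tail, since 5.32% of them stood above the highest HOX window and held 43.9% of their reads. The mean ratio was below 0 in Holstein 1 (-0.25) and Angus 3 (-0.35), and without both it was 0.12 (n = 6). These were the only 2 libraries below 0, so with both left out the p-value is fixed at its smallest and tells nothing.

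**Figure D1:**
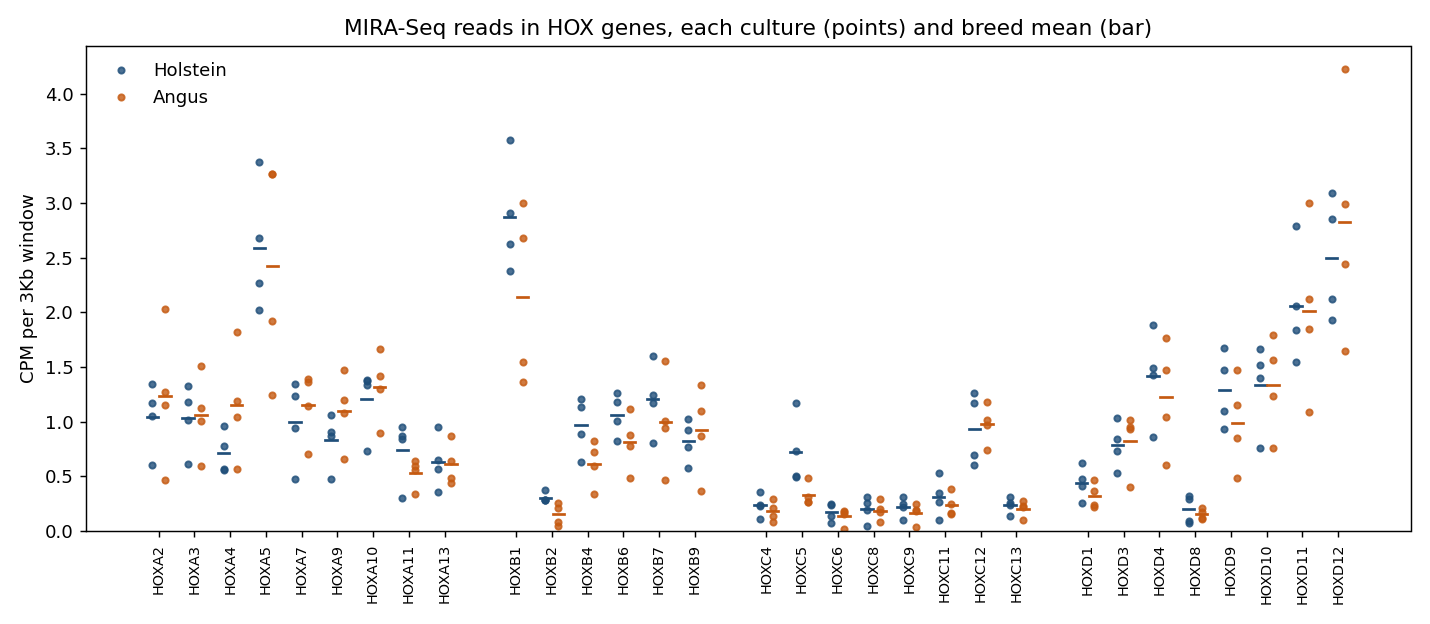
CPM per 3Kb window (linear axis from 0) of the HOX genes in cluster order, 1 gene left out. Each point is 1 culture, Holstein in blue and Angus in orange, and the bar is the mean of 4 cultures. HOXA5, HOXB1, HOXD11 and HOXD12 stand above 2 CPM on average, and most HOXC genes lie below 0.3.

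The HOXA genes lay at chr4:69296705-69404704, with 27 HOX windows in a stretch of 36. HOXA5, a gene of lung and axial skeleton patterning, was the highest of them with 2.51 ± 0.772 CPM per window (n = 8). It held 2.02, 2.68, 2.27 and 3.38 CPM across Holstein 1 to 4 and 1.92, 3.27, 1.24 and 3.26 across Angus 1 to 4. The breeds overlapped. Lower levels were held by HOXA2, which patterns the second pharyngeal arch (1.14 ± 0.478), HOXA3, needed for thymus and parathyroid (1.05 ± 0.318), HOXA4 (0.935 ± 0.430), HOXA7 (1.08 ± 0.336), HOXA9 (0.966 ± 0.311) and HOXA10, which acts in the uterus and the limb (1.26 ± 0.302). The ranges of these 6 genes over the libraries overlapped. HOXA11 and HOXA13, genes of the forearm and of the hand and genital tubercle, stood at 0.637 ± 0.241 and 0.620 ± 0.206 CPM. The highest window of the stretch carried no HOX symbol. It was the second coding exon window of LOC100848736, HOXA6 by its gene number, at chr4:69350705-69353704. It held 2.88, 3.55, 3.82 and 4.53 CPM across Holstein 1 to 4 and 3.07, 3.27, 1.88 and 6.10 across Angus 1 to 4, next to the HOXA5 window.

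The HOXB genes lay at chr19:38500275-38596274, with 13 HOX windows in a stretch of 32. HOXB1, which marks a single segment of the embryonic hindbrain, had the highest level with 2.51 ± 0.741 CPM. It held 2.63, 2.38, 2.91 and 3.57 CPM across Holstein 1 to 4 and 1.36, 2.68, 1.54 and 3.00 across Angus 1 to 4. Its neighbour HOXB2, also a hindbrain gene, had the lowest level with 0.230 ± 0.110 CPM per window, from 3 to 20 reads per library. HOXB2 held 0.379, 0.281, 0.284 and 0.281 CPM across Holstein 1 to 4 and 0.0873, 0.261, 0.0504 and 0.214 across Angus 1 to 4. Its windows belong to a run of 4 below 0.5 CPM at chr19:38581275-38593274 that ends where the HOXB1 window starts, so the highest and the lowest HOXB gene are close neighbours. HOXB4, a regulator of blood stem cells, HOXB6, HOXB7 and HOXB9 stood between 0.792 and 1.10 CPM. These 4 overlapped over the libraries. The stretch also holds the microRNA gene MIR10A, whose window stood at 0.995 ± 0.427 CPM, near the HOXB genes around it.

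The HOXC genes lay at chr5:26134906-26254905 and held the fewest reads per window of the 4 clusters. Of 8 HOXC genes, 6 had a mean below 0.3 CPM per window, against 2 of the 24 genes of the other clusters (HOXB2 and HOXD8). HOXC6, a gene of the thoracic region, was the lowest HOX gene of all with 0.154 ± 0.0776 CPM. It held 0.0759, 0.238, 0.246 and 0.141 CPM across Holstein 1 to 4 and 0.157, 0.174, 0.0168 and 0.187 across Angus 1 to 4. These values rest on 1 to 13 reads over its 2 windows, and differences between animals at this depth were not tested. HOXC4 (0.208 ± 0.0942), HOXC8 (0.195 ± 0.0941), HOXC9 (0.191 ± 0.0873), HOXC11 (0.275 ± 0.142) and HOXC13, a regulator of hair keratins (0.222 ± 0.0707), were as low. HOXC5 stood higher with 0.529 ± 0.301 CPM. HOXC12 was the highest of the 8 HOXC genes with a HOX symbol, with 0.955 ± 0.249 CPM. It held 0.607, 0.692, 1.17 and 1.27 across Holstein 1 to 4 and 1.01, 0.974, 0.739 and 1.18 across Angus 1 to 4. Every library was higher for HOXC12 than the highest library was for HOXC6.

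A run of 12 consecutive windows at chr5:26158906-26194905, over HOXC6, HOXC8 and HOXC9, lay below 0.5 CPM throughout and averaged 0.185 CPM. Levels were higher beyond it, at the microRNA gene MIR196A-2 (1.38 ± 0.429 CPM) and at LOC100847795, HOXC10 by its gene number. The 5 windows of LOC100847795 averaged 0.657, 1.42, 1.17 and 1.41 CPM across Holstein 1 to 4 and 1.31, 1.32, 0.598 and 1.87 across Angus 1 to 4. The other 35 windows of the HOXC stretch averaged 0.400 ± 0.114 CPM, and in each of the 8 libraries LOC100847795 stood above them. This peak was noticed in the data and has no test.

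The HOXD genes lay at chr2:20757034-20850033, with 17 HOX windows in a stretch of 31. HOXD12, a gene of the distal limb, was the highest HOX gene of all with 2.66 ± 0.818 CPM: 2.12, 2.86, 1.93 and 3.10 across Holstein 1 to 4 and 2.44, 2.99, 1.65 and 4.23 across Angus 1 to 4. HOXD8 was the lowest with 0.175 ± 0.0943 CPM per window: 0.0759, 0.325, 0.0946 and 0.296 across Holstein 1 to 4 and 0.175, 0.209, 0.118 and 0.107 across Angus 1 to 4. HOXD8 lay in a run of 7 windows below 0.5 CPM at chr2:20802034-20823033, which averaged 0.242 CPM. The next 4 windows, over HOXD9 and HOXD10, all reached 1 CPM and averaged 1.24. The limb genes HOXD9, HOXD10 and HOXD11 stood at 1.14 ± 0.389, 1.34 ± 0.394 and 2.04 ± 0.621 CPM. On the anterior side, HOXD1, HOXD3 and HOXD4 stood at 0.382 ± 0.140, 0.806 ± 0.232 and 1.32 ± 0.445 CPM. Beyond HOXD12, LOC100336775 (HOXD13 by its gene number) held 0.446 ± 0.162 CPM. The highest window of the 4 stretches, with 4.40 CPM, belonged to LOC100847387, which lies between HOXD1 and HOXD3 and matched no symbol in RefSeq.

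**Figure D2:**
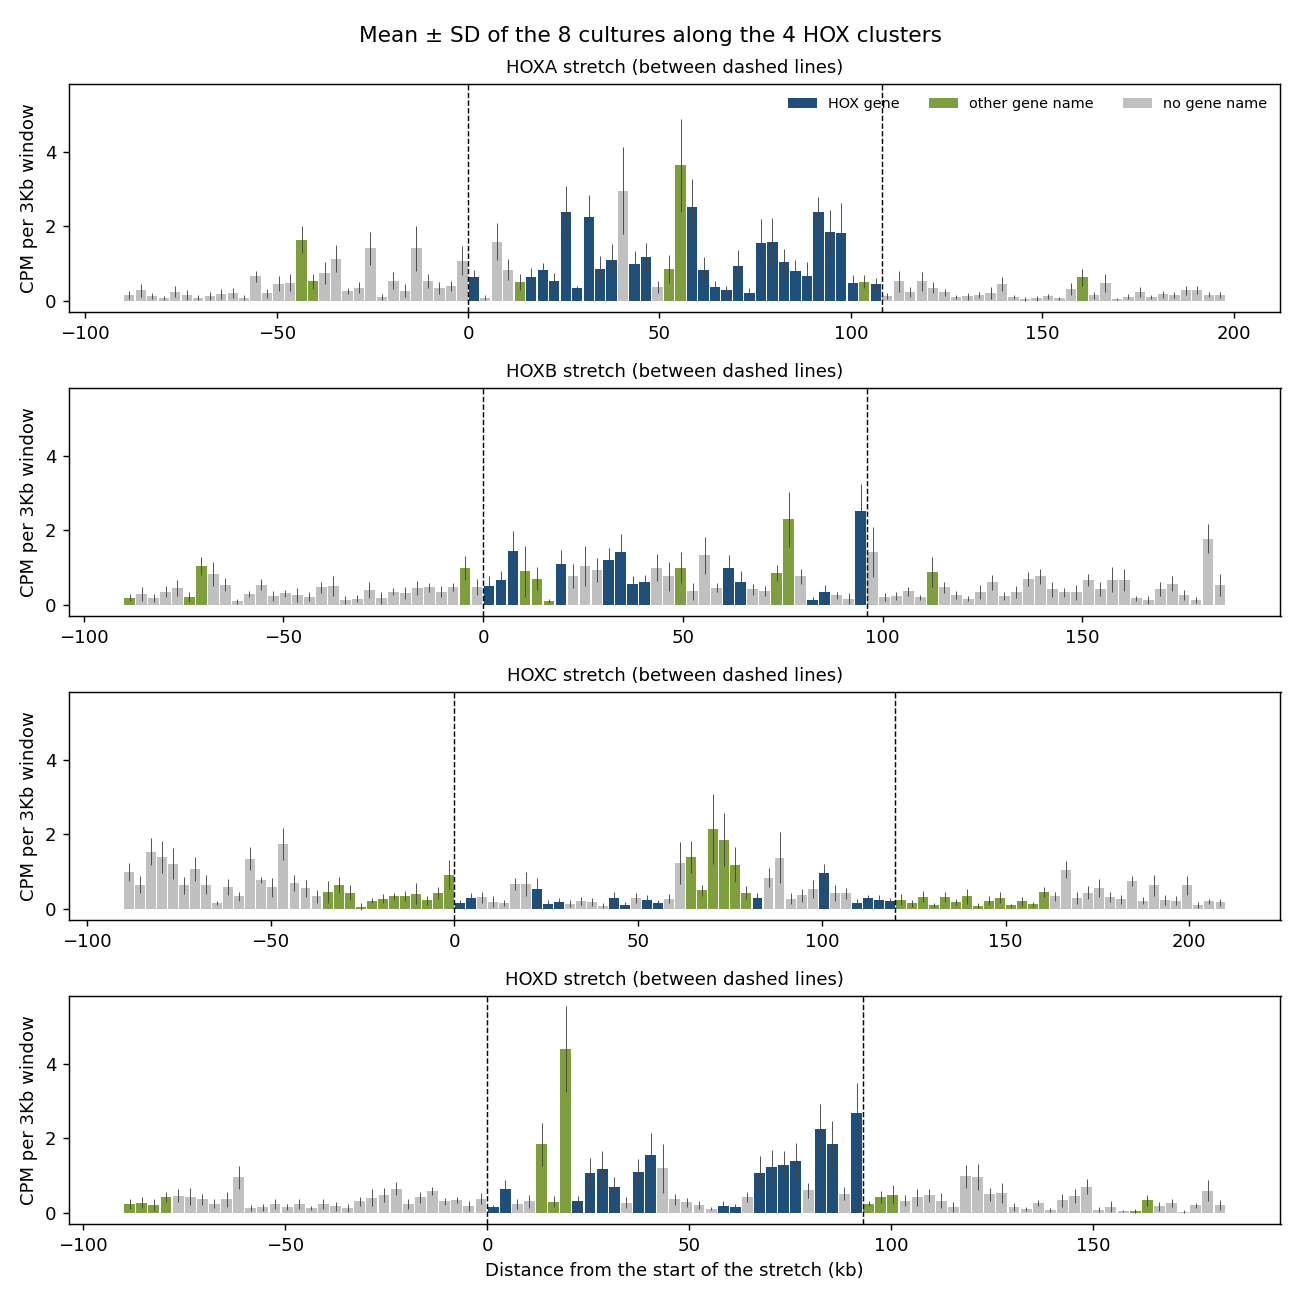
Mean CPM per 3Kb window of the 8 cultures (bars, SD as thin lines) along each HOX stretch and 30 windows on each side, by distance from the start of the stretch in kb. Blue windows carry a HOX name, green windows another gene name and grey windows none. The HOXA, HOXB and HOXD stretches rise above their flanks, and the long low run of the HOXC stretch and the low run around HOXD8 can be seen.

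The clusters were set against their own surroundings. HOXA, HOXB and HOXD held more reads per window than their flanks, and HOXC did not. The sign-flip test, here and in the other within-library comparisons, asks whether the libraries agree over the same fixed windows. It does not ask whether a stretch or class of windows differs from other regions of the genome. The HOXA stretch averaged 1.13 ± 0.316 CPM per window and the 100 windows on each side 0.292 ± 0.0814, a ratio of 3.87. The HOXD stretch (0.956 ± 0.251 against 0.294 ± 0.0813) was 3.26 times its flanks and the HOXB stretch (0.825 ± 0.230 against 0.356 ± 0.0962) 2.30 times. Each was higher in 8 of 8 libraries (exact sign-flip permutation test, adjusted p = 0.0104 over 4 clusters). The HOXC stretch averaged 0.502 ± 0.144 CPM and its flanks 0.552 ± 0.133, a ratio of 0.894, with the stretch lower in all libraries but Angus 4 (exact permutation, adjusted p = 0.0938). The HOXC ratio moved with the choices made: it passed the test as lower by the median (log2 -0.40, exact permutation adjusted p = 0.0078). With 30 flank windows it was 0.02 on the log2 scale. Without Angus 4, the only library above 0, it was -0.22. The exact permutation adjusted p = 0.0156 is then fixed at its smallest and tells nothing. Among the stretches themselves, the order HOXA, HOXD, HOXB, HOXC held in 8 of 8 libraries for all 6 pairs (exact permutation, adjusted p = 0.0078). HOXA was 2.27 times HOXC and 1.18 times HOXD, and HOXB was 0.856 times HOXD. By the median over windows, HOXB was instead above HOXD (log2 0.18, exact permutation adjusted p = 0.0938).

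**Figure D3:**
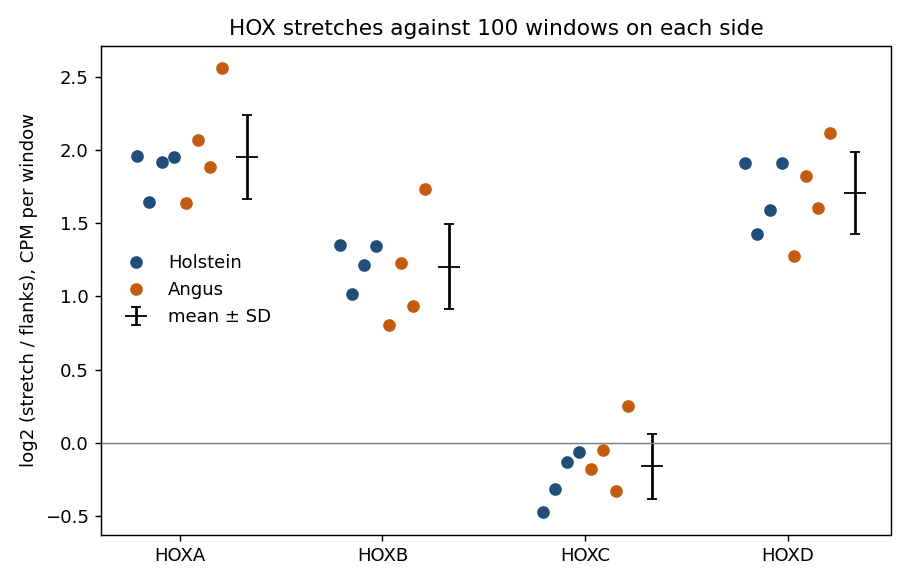
Log2 ratio of CPM per window in each HOX stretch to the 100 windows on each side, 1 point per culture (Holstein blue, Angus orange), with the mean ± SD of the 8 cultures in black. The points of HOXA, HOXB and HOXD all lie above 0 and those of HOXC lie around 0.

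Grouped by paralog number, central genes with a HOX symbol (numbers 5 to 8) held fewer reads than those at either end when the 4 clusters were pooled. In HOXA, central genes were instead the highest of the 3 groups. Anterior genes (1 to 4, 30 windows) averaged 0.892 ± 0.246 CPM per window, central genes (15 windows) 0.740 ± 0.197 and posterior genes (9 to 13, 27 windows) 0.975 ± 0.254. Central genes were below anterior ones (log2 difference 0.26 ± 0.18) and below posterior ones (0.40 ± 0.18) in 8 of 8 libraries, and anterior below posterior genes by 0.13 ± 0.08 (exact permutation, adjusted p = 0.0078 for all 3 pairs). The difference between anterior and posterior genes did not pass by the median over windows (exact permutation, adjusted p = 0.328). The pooled groups drew on the clusters unequally, since HOXC gave 5 of the 15 central windows and 2 of the 30 anterior ones. They also leave out the genes without a HOX symbol. Of these, LOC100848736 (HOXA6, central) averaged 2.24 CPM over 2 windows. LOC100847795 (HOXC10, posterior) averaged 1.22 over 5 windows and LOC100336775 (HOXD13, posterior) 0.446 over 2. The pooled order was not tested with them and may not hold. In HOXA, central genes averaged 1.55 ± 0.432 CPM, anterior genes 1.01 ± 0.323 and posterior genes 1.06 ± 0.266. In HOXB, central genes averaged 0.972 ± 0.256, anterior genes 0.911 ± 0.267 and HOXB9, the lone posterior gene, 0.870 ± 0.304. These means lay within each other's SD, and the order changed between libraries. Central HOXB genes were below anterior ones in Holstein 1 (0.819 against 0.931) and above them in Holstein 2 (1.18 against 0.944). In HOXC, central genes (0.246 ± 0.102) lay between HOXC4 (0.208 ± 0.0942) and the posterior genes (0.312 ± 0.0900). In HOXD alone the central level, that of HOXD8 (0.175 ± 0.0943), was below both the anterior (0.83 ± 0.24) and the posterior one (1.67 ± 0.469). The order within single clusters was not tested.

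Within HOX genes and stretches, windows with coding exons held more reads than the others. Over the 4 stretches, the 65 windows that touch a coding exon averaged 0.995 ± 0.254 CPM and the other 74 windows 0.705 ± 0.207. The ratio was 1.43, higher in 8 of 8 libraries (exact permutation p = 0.0078). Windows with a HOX name (0.891 ± 0.234) likewise stood above the 48 windows with no gene name in the same stretches (0.568 ± 0.164), in 8 of 8 libraries (exact permutation p = 0.0078). Some of the 48 may hold HOXB genes that have no name in the files. In the 21 HOX genes with more than 1 window, the first window by strand, which stands for the promoter side, averaged 0.766 ± 0.216 CPM. The other 40 windows of these genes averaged 0.873 ± 0.229, and the first windows were lower in 8 of 8 libraries (log2 -0.20, exact permutation p = 0.0078). By the median the direction turned (log2 0.02, exact permutation p = 0.938). A window of 3Kb holds the promoter, the first exon and the short intron of many HOX genes together. Exon 1 and exon 2 fell in separate windows in 14 genes, and the exon 2 window was the higher on average in 9 of them. HOXB4, among these 9, is on the - strand in the files and all other HOXB genes are on +, so its first window and exon order are in doubt. Without HOXB4, the log2 ratio of first to other windows was -0.18, lower in 7 of 8 libraries (exact permutation p = 0.0156). HOXA3 (2.38 against 0.672 CPM) and HOXB9 (1.44 against 0.586) were higher at exon 2 in all 8 libraries, and HOXA2, HOXA10 and HOXD1 were higher at exon 1 in all 8.

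The breeds were then compared at each HOX window and gene, the question the study asked of the whole genome. No HOX window or gene was called as differentially methylated between Holstein and Angus. The study's filter, 1 CPM or more in 4 or more libraries, was passed by 30 of 72 HOX windows and 18 of 32 HOX genes. Among the genes that did not pass were HOXA4, HOXA11, HOXA13, HOXB2, 7 of 8 HOXC genes, HOXD1 and HOXD8. With edgeR's likelihood-ratio test, 0 of 30 windows and 0 of 18 genes passed FDR < 0.1 and a fold change of at least 2, where 0.231% of the 115360 windows tested and 0.0721% of the 19408 genes tested passed. At an unadjusted p under 0.05 there were 4 of 30 HOX windows, where the background was 4.94%, and 2 of 18 HOX genes, where it was 1.97%. edgeR's quasi-likelihood test called 0 HOX windows (background 0.122%) and 0 HOX genes (background 0.0%), and DESeq2 0 (0.123%) and 0 (0.0309%). With so few calls in all, so few HOX windows and genes would hardly give one. The absence of calls therefore does not tell HOX genes from other genes. At an unadjusted p under 0.05 there were 2 windows and 2 genes by each, with a background of 4.47% and 1.78% by quasi-likelihood and 3.29% and 1.44% by DESeq2. Without the filter 0 of 72 windows (background 0.102%) and 0 of 32 genes (background 0.134%) were called, with 9 windows (background 4.55%) and 5 genes (background 2.8%) at an unadjusted p under 0.05. The log2 fold changes of the 18 genes lay between -0.53 and 0.53, with a median of -0.15 against 0.00 over all genes tested. Without TMM, the median over all genes tested moved to 0.15 and that of the HOX genes to 0.00. With TMM 12 of the 18 HOX genes were lower in Holstein, and without it 9 of 18. At an unadjusted p under 0.05 there were then 1 of 30 HOX windows (background 2.72%) and 0 of 18 HOX genes (background 0.742%), with 0 of either called (background 0.34% and 0.113%). The median size of the log2 fold change was 0.25 for HOX genes and 0.07 over all genes tested, which mostly span more windows. The part of window number in this difference was not tested. Per window the median size was 0.174 for HOX windows and 0.127 over all windows tested. Without the filter it was 0.224 and 0.260.

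The HOX genes with the smallest p-values had fold changes of both signs. HOXA9, a posterior gene that acts in blood cells and limb, gave -0.53 on the log2 scale (SE 0.19, adjusted p = 1.00 by edgeR), lower in Holstein. It held 0.480, 1.06, 0.908 and 0.873 CPM across Holstein 1 to 4 and 1.08, 1.20, 0.655 and 1.47 across Angus 1 to 4, where only Angus 3 lay inside the Holstein range. HOXB4 gave 0.53 (SE 0.21, adjusted p = 1.00 by edgeR), higher in Holstein, from 0.632, 0.887, 1.14 and 1.21 CPM across Holstein 1 to 4 and 0.820, 0.591, 0.336 and 0.722 across Angus 1 to 4, where only Holstein 1 lay inside the Angus range. HOXA10 gave -0.28 (SE 0.14, adjusted p = 1.00 by edgeR). It held 0.728, 1.38, 1.37 and 1.34 CPM across Holstein 1 to 4 and 1.42, 1.30, 0.900 and 1.67 across Angus 1 to 4, and the breeds overlapped. None of the 3 passed the adjustment over all genes.

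Among the 30 windows that passed the filter, the second coding exon of HOXA9 at chr4:69332705-69335704 had the smallest p (log2 -0.61, SE 0.23, FDR 0.588 by edgeR). It held 0.708, 0.779, 0.795 and 1.27 CPM across Holstein 1 to 4 and 1.33, 1.29, 0.705 and 1.87 across Angus 1 to 4. In HOXD9, the window at chr2:20823034-20826033, the first above the low run around HOXD8, gave 0.65 (SE 0.25, FDR 0.622 by edgeR). Its values were 0.961, 1.51, 1.17 and 1.83 CPM across Holstein 1 to 4 and 0.593, 1.29, 0.638 and 0.589 across Angus 1 to 4. In HOXA7, the second exon window at chr4:69341705-69344704 gave -0.47 (SE 0.24, FDR 0.999 by edgeR), with 0.607, 1.38, 0.870 and 1.29 CPM across Holstein 1 to 4 and 1.64, 1.01, 0.974 and 1.66 across Angus 1 to 4. The breeds overlapped in each of these windows. Over all 72 windows without the filter, 3 windows had smaller p-values, at HOXA3, HOXA4 and HOXC5. The first of them, the exon 1 window of HOXA3 at chr4:69383705-69386704, gave -1.01 (SE 0.29, FDR 0.288 by edgeR). It held 0.152, 0.606, 0.454 and 0.647 CPM across Holstein 1 to 4 and 0.628, 0.556, 0.940 and 1.39 across Angus 1 to 4, from 3 to 28 reads, and the breeds overlapped.

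The breeds did not overlap by CPM in 2 of the 32 HOX genes, HOXB2 and HOXC5, both higher in Holstein, where the background was 0.503% in that direction. HOXC5 held 0.506, 1.17, 0.492 and 0.732 CPM across Holstein 1 to 4 and 0.314, 0.487, 0.269 and 0.268 across Angus 1 to 4, from 5 to 27 reads. Which genes separated depended on the scaling. With TMM library sizes HOXC5 remained and HOXB2 did not, while HOXA4 and HOXA9 separated with Angus higher, where the background was 0.781% for Holstein higher and 0.73% for Angus higher. With TMM, HOXA4 held 0.681, 0.696, 0.521 and 0.787 across Holstein 1 to 4 and 1.25, 0.952, 0.844 and 1.56 across Angus 1 to 4. HOXA4, HOXB2 and HOXC5 did not pass the CPM filter, and their unfiltered fold changes (-0.77, 0.91 and 0.90 on the log2 scale) had an FDR between 0.847 and 1.00 by edgeR.

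**Figure D4:**
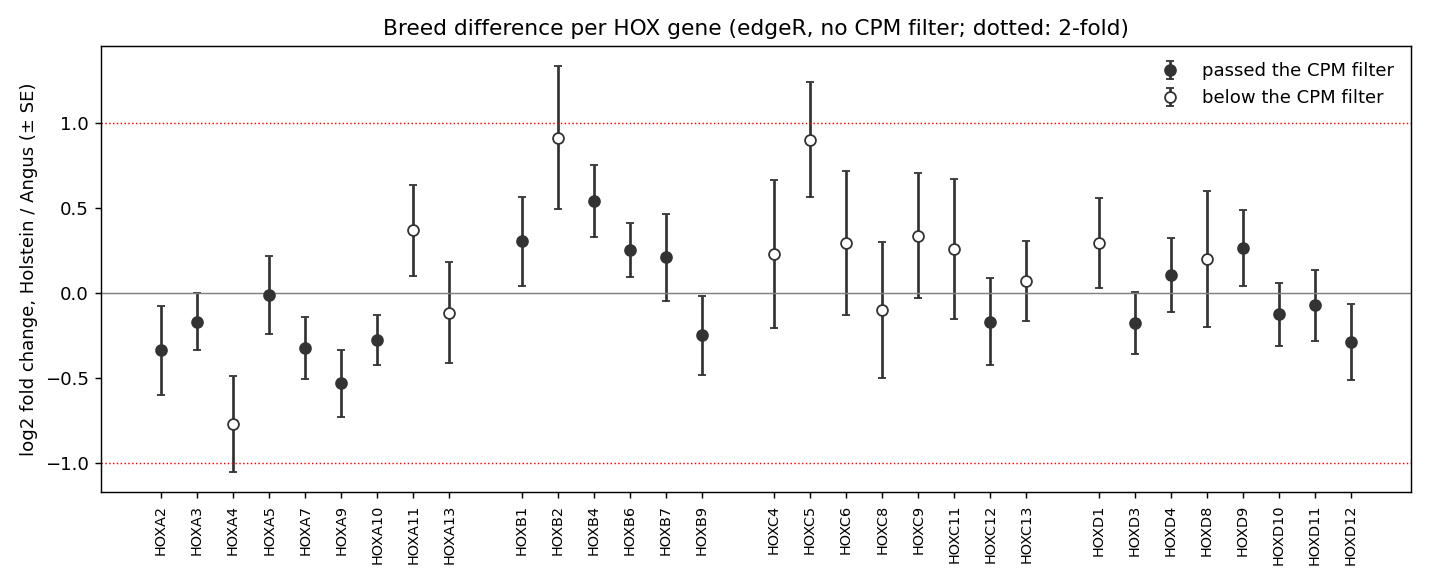
Log2 fold change, Holstein over Angus, of the HOX genes with its SE (edgeR without the CPM filter), 1 gene left out. Filled points passed the filter, open points did not, and dotted lines mark a 2-fold change. No point reaches a dotted line, and HOXA genes lie mostly below 0 and HOXB genes mostly above.

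By cluster, all 6 tested HOXA genes had a fold change below 0 with TMM (median -0.30) and 4 of 5 tested HOXB genes one above 0 (median 0.25). On total counts, without TMM, 5 of 6 HOXA genes lay below 0 and 4 of 5 HOXB genes above. None of these genes passed the test, and genes of a cluster share their chromosome region and are not replicates. The levels of the stretches did not separate the breeds. The HOXA stretch averaged 1.10 ± 0.278 CPM per window in Holstein and 1.16 ± 0.391 in Angus (n = 4 each), the HOXB stretch 0.872 ± 0.210 and 0.777 ± 0.271, the HOXC stretch 0.510 ± 0.157 and 0.494 ± 0.154, and the HOXD stretch 0.989 ± 0.256 and 0.923 ± 0.281. All 4 differences were smaller than the spread within a breed (exact permutation, adjusted p = 0.857 for each). With TMM library sizes Holstein averaged 1.02 ± 0.114 and Angus 1.17 ± 0.177 for HOXA. This difference (-0.150) exceeds the Holstein SD and did not pass the test (exact permutation, adjusted p = 0.876). The HOXB difference was then 0.034. The ratio of HOX windows to other gene windows was also alike in range (log2 0.00 ± 0.18 in Holstein and 0.03 ± 0.28 in Angus, exact permutation p = 0.886).

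The ratio of the HOXA to the HOXB stretch within a library, which does not depend on library size, did separate the breeds. It was noticed after the values were seen. On the log2 scale it was 0.30, 0.35, 0.31 and 0.35 across Holstein 1 to 4 and 0.62, 0.46, 0.68 and 0.61 across Angus 1 to 4. Every Angus library had more HOXA relative to HOXB than any Holstein library, Holstein 1 and Angus 3 included. Holstein averaged 0.33 ± 0.03 and Angus 0.59 ± 0.09. The difference was -0.26, with an exact two-sided permutation p = 0.0286, the smallest that 4 against 4 allow. It was the lowest p of 17 within-library ratios compared between the breeds and did not pass after adjustment over them (adjusted p = 0.486, exact permutation). By the median over windows the difference was -0.20 (exact permutation p = 0.229).

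**Figure D5:**
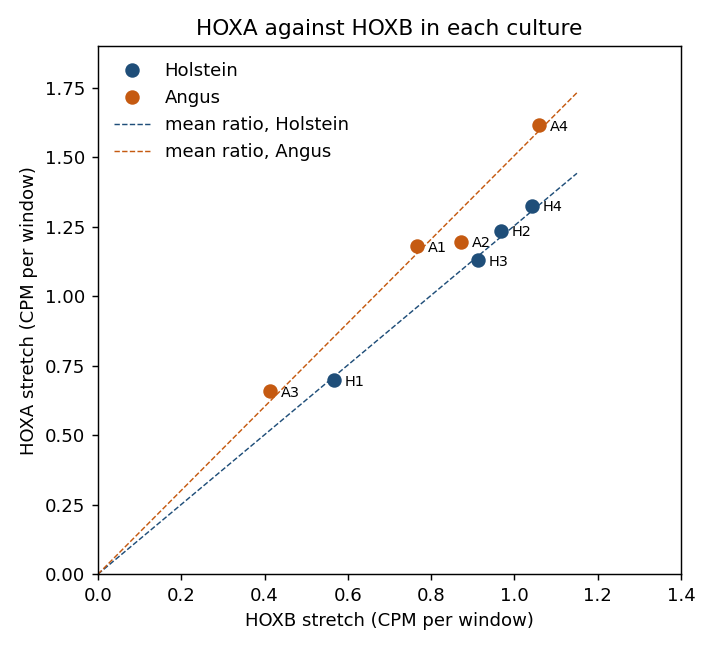
CPM per window of the HOXA stretch against the HOXB stretch, 1 point per culture (H, Holstein, blue; A, Angus, orange, with the animal number), with dashed lines through 0 at the mean ratio of each breed. The 4 Angus points lie on a steeper line than the 4 Holstein points, and Holstein 1 and Angus 3 are low for both clusters.

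Genes that work with HOX proteins or regulate the clusters were read in the same way. Of the HOX cofactors (PBX, MEIS and PKNOX genes, whose proteins bind DNA together with HOX proteins), 0 of 8 tested were called between the breeds, where 0.0721% of all genes tested were called. Of regulators (CDX genes, Polycomb genes and retinoic acid receptors) 0 of 9 and of genes beside the clusters 0 of 8 were called by edgeR's likelihood-ratio test. The quasi-likelihood test and DESeq2 also called 0, where they called 0.0% and 0.0309% of all genes. With so few calls in all, lists of this size give no call to compare. EVX1, a homeobox gene next to HOXA13, was the one gene of the 25 tested in the 3 lists with an unadjusted p under 0.05, where 1.97% of all genes had one, and it was lower in Holstein (log2 -0.53, SE 0.18, adjusted p = 0.633 by edgeR). The median log2 fold changes of the 3 lists were 0.03, 0.00 and 0.00. Levels per window of these genes spanned those of the HOX genes. The cofactors ranged from PBX3 (0.220 ± 0.0757 CPM per window) to MEIS3 (2.07 ± 0.263). The regulators ranged from the Polycomb gene SUZ12 (0.105 ± 0.0629), below every HOX gene, to the retinoic acid receptor RARA (6.33 ± 1.11), above every HOX gene. The neighbours ranged from SKAP2 (0.224 ± 0.0623), beside HOXA, to SMUG1 (2.02 ± 0.432), beside HOXC.

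DNA libraries cannot show which genes a cell expresses. Only the reads at the first window of marker genes can be given, and the part of CpG density in them was not tested. The 7 fibroblast markers held 0.0248 to 0.341 CPM there, with VIM highest. DCN was lowest with 0 to 2 reads per library, below the floor of 3 reads, and COL3A1 held 0 to 3. The 3 keratinocyte markers held 0.680 to 1.99 CPM, the 2 endothelial markers 0.550 to 2.89 and the 2 leukocyte markers 0.301 to 0.745. The leukocyte marker PTPRC (0.301) lay inside the range of the fibroblast markers, so these levels do not tell the cell types apart.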

How the data were processed

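MIRA-Seq libraries of 4 Holstein and 4 Angus fibroblast cultures were analysed; groups and animal numbers came from the sample titles. Base calling used CASAVA 1.7. The authors filtered the reads, aligned them to UMD v3.1 with NextGENe 2.3.4 and deposited raw read counts per 3Kb window without normalization. The deposited files also give coverage per window as a signal not scaled for depth, which was used only to look for stacked reads. How duplicates and multiply matching reads were handled is not given in the sources used here. A window carries 1 gene name, so overlapping genes share windows.

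Counts were fitted over all windows, and over all genes (counts summed over a gene's windows), with edgeR 4.0.16 in R 4.3.3: TMM scaling, dispersions by estimateDisp, the likelihood-ratio test of its generalized linear models, and adjustment by Benjamini and Hochberg. Features had to reach 1 CPM in 4 or more libraries, and calls needed FDR < 0.1 and a fold change of at least 2. The SE is the log2 fold change divided by the root of the likelihood ratio. Test and filter follow the study's methods as described. This fit called 267 of the 115360 windows tested, more than the study reported at these thresholds, so the study's call set was not reproduced. The cause of this difference was not tested. The quasi-likelihood test and DESeq2 1.42.0 were alternatives. Within-library log2 ratios of mean CPM per window were tested by exact sign-flip permutation over the 8 libraries, and breeds by exact permutation over animals, two-sided, with Benjamini-Hochberg adjustment within each family (Python 3.11.15, numpy 2.4.6, pandas 2.3.3). Where medians over windows replaced the means, 0.1 CPM was added to each median before the log2 ratio, and the printed medians are without it. The scripts were tested on simulated data.

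The HOX genes and the gene lists were chosen with earlier results of these data known. Named with values in every library were the highest and the lowest HOX gene of each cluster by mean CPM, the HOX window with most reads in each cluster, and the 3 HOX genes and 3 HOX windows with the smallest p between breeds. HOXA6, HOXC10, HOXC5, HOXA4, EVX1, LOC100847387, the microRNA genes and the window runs were added after their values were seen. RefSeq (ARS-UCD2.0, another build than the files') was used for names only: of 8 LOC names inside the stretches, 2 were HOX genes. PBX2, CDX4, KMT2A and EVX2 matched no name in the files. The values of 1 HOX gene are not reported here, though it is among the members counted.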

Additional observations from a re-analysis of the deposited data

Results flagged for a closer look

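In a search of 108 groups of 4 libraries for a value far from the other 3, 6 were found, near the 1 in 20 that chance gives. The groups share windows and libraries, so they are not independent. Holstein 1 was far below the other Holstein libraries for HOXA10 (0.728 CPM per window) and HOXA11 (0.303), and far above them for HOXB2 (0.379). Angus 3 was far below the other Angus libraries for HOXD3 (0.403 CPM per window) and for the HOXC stretch as a whole (0.264). Holstein 2 had the lowest log2 ratio of the HOXA stretch to its flanks among Holstein (1.65). Holstein 1 and Angus 3, the libraries with the most concentrated reads, gave 5 of these 6 values, and the part of that concentration in them was not tested.

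The HOXA to HOXB ratio differed between the breeds by -0.26 on the log2 scale, Holstein minus Angus (exact permutation p = 0.0286, adjusted p = 0.486 over 17 ratios). All 4 Holstein libraries were below all 4 Angus libraries.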

How the results depend on the processing

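The limits are those of depth and of window size: a HOX window held few reads, and CpG density, copy number and reads that match several places were not separated from methylation. Recomputing levels per CpG was not run, since no genome of the files' build was used here. Calls between the breeds stayed at 0 for HOX windows, HOX genes and the 3 other gene lists under every alternative run. Calls were rare over all features, so this says little of stability.

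Among levels compared within libraries, the median over windows gave 0.86 on the log2 scale for HOX against other gene windows and -0.40 for HOXC against its flanks, which both then passed the test (exact permutation, adjusted p = 0.0078). It gave -0.072 for anterior against posterior genes, which then did not pass, and turned HOXB against HOXD to 0.18 and first against other windows to 0.016. Without the highest 5 percent of windows these values were 0.60 for HOX against other genes and -0.18 for HOXC against its flanks, both past the threshold, and -0.13 for HOXB against HOXD, not past it. Against all other autosomal windows the HOX ratio was -0.18, and with 30 flank windows the HOXC ratio was 0.023. Leaving out Holstein 1 and Angus 3, an alternative chosen after seeing the data, gave 0.12 for HOX against other genes. These were the only 2 libraries below 0, so this p-value is fixed at its smallest and says nothing of stability. The cause was not tested for any of these.

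The breed difference in level, Holstein minus Angus in CPM per window, became -0.150 for HOXA and 0.034 for HOXB and turned to -0.028 for HOXC and -0.011 for HOXD with TMM library sizes and to -0.0075 for HOXC with totals over autosomal windows. The log2 fold change of HOXA5 was 0.11 on total counts. None of these passed a test.

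Leaving out 1 library at a time, HOX against other genes ranged from -0.029 to 0.065 and its difference between breeds from -0.156 to 0.064. The breed difference in level ranged from -0.233 to 0.086 for HOXA, from -0.026 to 0.197 for HOXB, from -0.061 to 0.093 for HOXC and from -0.062 to 0.172 for HOXD. HOXC against its flanks ranged from -0.221, without Angus 4, to -0.117, the HOXA to HOXB difference between breeds from -0.309 to -0.236, and HOXA5 from -0.160 to 0.109.

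Replicate numbers are shared by the breeds but name animals only. The deviations of same-numbered libraries had correlations of -0.211, 0.044, -0.012 and 0.109, so the numbers do not pair them. With the number as a block the counts of calls stayed 0, the HOXA difference in level was -0.065, and the HOXA to HOXB difference was -0.26. Its exact sign-flip permutation p = 0.125 is the smallest that this block allows, so it cannot be set beside the unblocked one.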
